A study of Equus caballus with 6 samples.

Results

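The genes described here are 7 members of the chemokine system: the ligands CXCL8, CCL3, CCL5, CCL8 and CCL13, and the receptors CCR2 and ACKR3. They were chosen by name, as the probes that carry the RefSeq transcript of one of these horse genes, out of 870 genes that could be matched to a RefSeq transcript on the array. The 7 genes had 19 probes on 23 spots, and 17 of these probes, with at least 1 for each gene, passed the filter on dim probes, which asks for a signal well above background on 3 or more arrays of 6. The samples were buffy-coat leukocytes, the white blood cells that settle in a pale layer when blood is spun, from 3 neutered male warmblood horses before and after exercise, with 1 array for each sample. The horses carry the numbers 1, 2 and 4 and were aged 11, 7 and 15 years per their labels, while the text on the design gives 9 to 17 years. The 3 samples before exercise are the controls of the 3 samples after it, each pair from the same horse, and no genotype, drug or other treatment is named. The labels of the samples after exercise give a time of 60 min, whereas the sampling protocol places the draw directly after exercise, and which of these holds is not known here. The comparison asks how gene expression in blood leukocytes differs after exercise.

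Chemokines are small secreted proteins that guide leukocytes along a gradient, and their receptors are G protein-coupled receptors on the leukocyte surface. CXC and CC chemokines are told apart by the spacing of their first cysteines. CXCL8 (interleukin 8) attracts and activates neutrophils, CCL3 and CCL5 attract monocytes, T cells and NK cells, and CCL8 and CCL13 belong to the monocyte chemoattractant group that signals through CCR2 among other receptors. ACKR3 is an atypical receptor that takes up chemokines, CXCL12 among them, without classical G protein signalling. In blood, CXCL8 and CCL3 are made mainly by monocytes and neutrophils once activated, CCL5 is stored by cytotoxic T cells and NK cells and also by platelets, and CCR2 marks classical monocytes. In the gene order of the RefSeq annotation (assembly TB-T2T), CCL13 and CCL8 are direct neighbours, CCL11 follows CCL8, CCL16 precedes CCL5, CCR3 follows CCR2 and CXCL6 precedes CXCL8.

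Levels below are log2 values relative to the 75th percentile of the same array, so that 0 marks the signal of that percentile, and a change is the value after minus the value before exercise. Levels of different probes are not compared, since probes differ in brightness. On each array 64.1% to 69.4% of spots were well above background, and the 2 slides were not balanced: slide 2 held the samples before exercise of horses 1 and 2, and slide 1 held the other 4 arrays. In bulk samples like these, fewer cells of a type and less RNA per cell cannot be told apart. The 26 marker genes of blood cell types that passed the filter were well above background on all 6 arrays, among them FCAR and MMP9 of neutrophils, CD14 and CSF1R of monocytes and CD2 of T cells. Defining transcripts of the labelled tissue were therefore present, beside the erythroid haemoglobins HBB and HBA2. The platelet gene ITGB3 and the erythroid gene SLC4A1 were on the array and did not pass, being above background on at most 1 and on 0 arrays with any of their probes.

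After exercise no member probe passed the test. Of the 17 member probes, 13 were higher and 4 lower in the mean, against 56.9% and 43.1% of all 29570 probes tested. Their median change was 0.23, but 6 of the 17 probes read CXCL8. With each gene counted once by its brightest probe, 5 genes were higher and 2 lower and the median was 0.048, level with the median of 0.044 over all probes. The limma adjusted p-values of the members lay between 0.9986 and 0.9996, and 0 members had an unadjusted p under 0.05. Across the whole array the percentage of probes called by limma was 0, and 2.89% were under an unadjusted p of 0.05. Of the 17 probes, 6 were higher after exercise in all 3 horses and 0 were lower in all 3, where 17.3% of all probes were higher and 11.5% lower in all 3. The 6 belong to only 2 genes, 5 to CXCL8 and 1 to CCL3. For 0 of the 17 probes did the values before and after exercise not overlap, against 7.31% of all probes. With the horse as a block, which compares each horse with itself, 0 members and 0% of probes were called, and 0 members against 6.08% of probes had an unadjusted p under 0.05.

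**Figure D1:**
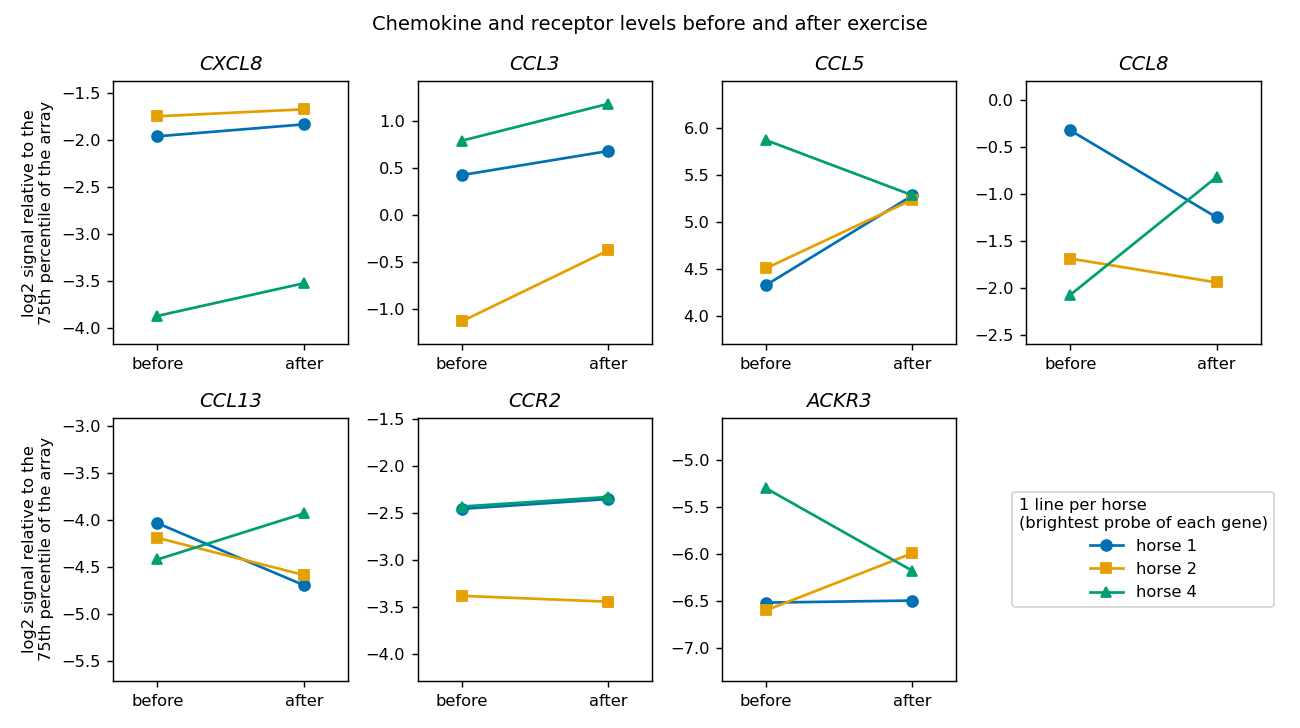
Level of the brightest probe of each gene before and after exercise, as log2 signal relative to the array's 75th percentile (vertical axes of equal length but different position), with 1 line for each of the 3 horses. CXCL8 and CCL3 have 3 lines of the same direction, while in CCL5, CCL8 and CCL13 the line of horse 4 runs against the lines of horses 1 and 2.

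Among the ligands, CXCL8 differed little after exercise and much between horses. Its brightest probe read -1.96, -1.75 and -3.87 before and -1.83, -1.67 and -3.52 after exercise in horses 1, 2 and 4. Both arrays of horse 4 lay below all 4 arrays of the other horses, and in each horse the sample after exercise was slightly the higher. The changes were 0.13, 0.074 and 0.35, small beside the SD of 1.17 between the horses before and 1.03 after exercise. The mean change was 0.18 (SE 0.71, 95% interval -1.50 to 1.86, limma adjusted p = 0.9992, n = 3 against 3). With the horse as a block the interval narrowed to -0.23 to 0.60 (SE 0.16, limma adjusted p = 0.79, n = 3 pairs).

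The other 5 CXCL8 probes showed the same picture. Their mean changes ran from 0.23 to 0.37, and of the 18 changes of the 6 probes in the 3 horses 17 were above 0. The exception was -0.081 in horse 1, for the dimmest probe. With the horse as a block the 6 probes had unadjusted p-values of 0.061 to 0.30 and limma adjusted p-values of 0.75 to 0.79. These probes read 1 transcript in the same RNA, so they repeat the measurement within a sample and add no horses.

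**Figure D2:**
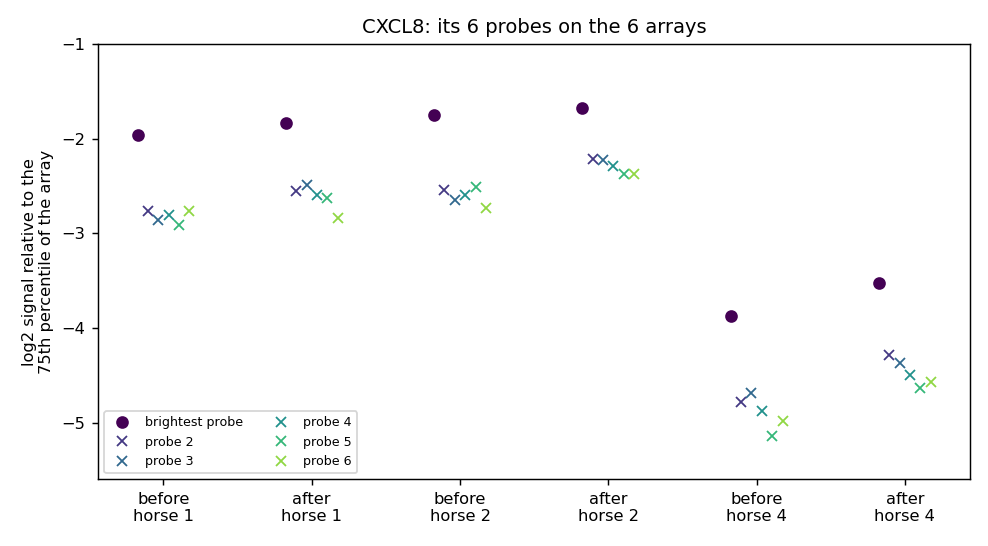
Level of each of the 6 CXCL8 probes on the 6 arrays, as log2 signal relative to the array's 75th percentile, with the arrays ordered by horse. Every probe is lowest on the 2 arrays of horse 4, and the step from before to after exercise within a horse is small beside the step between horses.

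The brightest CXCL8 probe was printed on 5 spots, 1 of them in array column 1. In that column 36.8% of spots were well above background on the horse 4 array before exercise, against 61.5% to 67.8% on the other arrays. On that array the spot in column 1 read -8.12, a difference of -4.25 from the mean of the other 4 spots. It was not well above background there and carried the outlier mark of the scanner software. On the other 5 arrays that spot lay within 0.089 of the mean of the other 4. The 4 remaining spots had SDs of 0.047 to 0.14 on the 6 arrays, so the values above rest on spots that lie close together. With the outlier spots kept, the mean change of CXCL8 was 0.47 instead of 0.18.

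**Figure D3:**
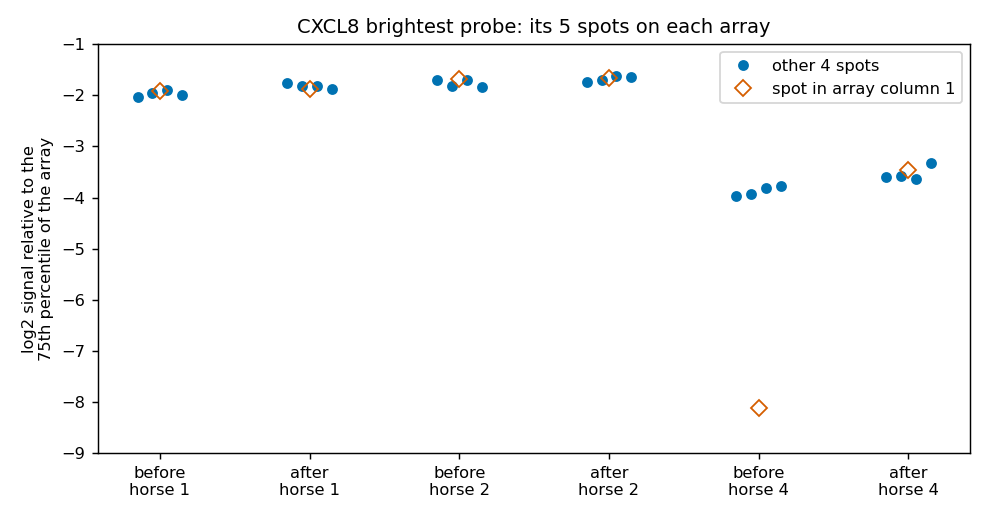
The 5 spots of the brightest CXCL8 probe on each array, as log2 signal relative to the array's 75th percentile. The spot in array column 1 (open diamond) lies within 0.089 of the mean of the other 4 on 5 arrays and at -8.12 on the horse 4 array before exercise.

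CCL3, a macrophage inflammatory protein, was the other ligand that was higher after exercise in every horse. Its single probe read 0.43, -1.13 and 0.79 before and 0.68, -0.38 and 1.18 after exercise in horses 1, 2 and 4. Horse 2 was lowest and horse 4 highest at both times, and the groups overlapped. The changes were 0.26, 0.76 and 0.39. The mean change of 0.47, a 1.38-fold higher signal, had an SE of 0.60 (95% interval -0.95 to 1.88, limma adjusted p = 0.9986). With the horse as a block the SE was 0.18 and the interval -0.0010 to 0.94 (limma adjusted p = 0.75, n = 3 pairs). Without the horse 2 array before exercise, which leaves the lowest horse only after it, the mean change was -0.11. Without both arrays of horse 2 it was 0.32.

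CCL5 (RANTES) spread widely between the horses before exercise and lay at 1 level after it. Its brighter probe read 4.33, 4.51 and 5.87 before exercise in horses 1, 2 and 4, and 5.28, 5.24 and 5.28 after it. The 3 values after exercise lay within 0.046 of each other (SD 0.026, against 0.84 before), and 1.28% of probes tested had a smaller SD after exercise. The spread before was less unusual, with 10.2% of probes having a larger SD. It came mainly from horse 4, on slide 1, lying apart from horses 1 and 2, on slide 2. All 3 arrays after exercise were on slide 1, so slide and exercise cannot be told apart in this difference of spread. The changes were 0.95 and 0.73 in horses 1 and 2 and -0.59 in horse 4. The dimmer probe gave 0.99, 0.87 and -0.64, again with 3 values after exercise within 0.073 of each other. The mean change of the brighter probe was 0.37 (SE 0.41, 95% interval -0.60 to 1.33, limma adjusted p = 0.9986). Higher in horses 1 and 2 and lower in horse 4 is a common pattern here, found in 24.1% of all probes. The pairs of horses 1 and 2 cross the 2 slides and that of horse 4 does not. A difference between these horses and one between the slides therefore cannot be told apart in this pattern.

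Summed markers of NK and T cells were higher after exercise in horses 1 and 2 and lower in horse 4, as CCL5 was, while single markers differed. The 5 measured of 14 NK and cytotoxic cell genes (GZMB, GNLY, KLRD1, FASLG and NCR1) had a summed linear level of 37.3 to 75.1 before and 51.0 to 67.0 after exercise. By horse it went from 43.2 to 57.0 in horse 1, from 37.3 to 51.0 in horse 2 and from 75.1 to 67.0 in horse 4. The 3 measured of 14 T cell genes (CD2, IL7R and CD28) had 2.12 to 5.26 before and 3.12 to 3.58 after, with a higher sum after exercise in horses 1 and 2 and a lower sum in horse 4. The NK sum is mostly that of GZMB, with changes of 0.37, 0.46 and -0.21 in horses 1, 2 and 4. GNLY was higher in horse 4 as well (0.38), and NCR1 (-0.44) and IL7R (-0.063) were lower in horse 1. The platelet genes SELP, ITGA2B and SPARC, 3 of 10, had sums of 25.1 to 35.5 before and 24.9 to 32.8 after. That sum is mostly SELP, which was lower after exercise in all 3 horses. ITGA2B had the signs of CCL5 (0.25, 0.83 and -0.23 in horses 1, 2 and 4), and SPARC did not (0.19, -0.24 and 0.71). The signs of CCL5 were also those of the monocyte genes CD14 (0.79, 0.84 and -0.77), TLR4 and CSF1R and of the neutrophil gene LTF. The monocyte genes TIMP1 and CD68 and the neutrophil genes MMP9 and FCAR had other signs. The likeness is thus not particular to NK and T cell genes, and the part of any of these cells in the CCL5 values was not tested.

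The 2 monocyte chemoattractants of the MCP group had the opposite pattern. The brightest CCL8 probe read -0.32, -1.68 and -2.07 before and -1.25, -1.94 and -0.82 after exercise in horses 1, 2 and 4. Horse 1 was highest before and horse 4 highest after exercise, so the groups overlapped fully. The changes were -0.93, -0.25 and 1.26. The other 2 CCL8 probes gave -1.02 and -0.43 in horse 1, -0.34 and -0.061 in horse 2 and 1.07 and 0.88 in horse 4, the same signs throughout. The mean change of 0.025 (SE 0.50, 95% interval -1.18 to 1.23, limma adjusted p = 0.9996) therefore averages opposite values. Mean changes of the 3 probes ran from -0.095 to 0.13.

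CCL13 had the same signs as CCL8 in each horse. Its brightest probe read -4.04, -4.19 and -4.42 before and -4.70, -4.59 and -3.93 after exercise. The changes were -0.66, -0.39 and 0.49 in horses 1, 2 and 4, with a mean of -0.19 (SE 0.26, limma adjusted p = 0.9986). A second probe gave -1.61, -2.40 and 0.56, with a mean of -1.15 (SE 0.53, 95% interval -2.42 to 0.12, limma adjusted p = 0.9986). It had the smallest unadjusted p of the members after exercise, 0.069, but cleared the background mark on only 3 of the 6 arrays, horses 1 and 2 before and horse 4 after exercise, so that its larger changes end near background. The remaining 2 CCL13 probes did not pass the filter: one was not well above background on any array, and the other was so in horse 4 alone, where its spot after exercise was an outlier that was left out. Lower in horses 1 and 2 and higher in horse 4 was found in 19.5% of all probes. As for CCL5, this split of CCL8 and CCL13 coincides with the slides, and horse and slide cannot be told apart in it.

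**Figure D4:**
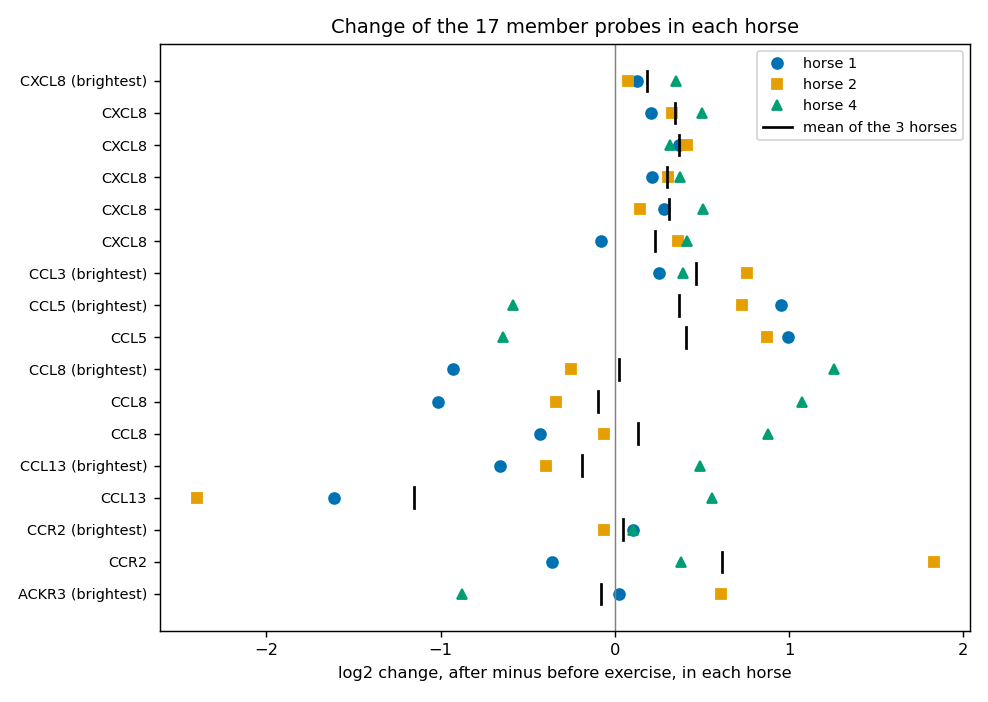
Change after exercise of the 17 member probes in each of the 3 horses (symbols) and their mean (bar), on the log2 scale, with 0 marked by a line. The CXCL8 symbols lie close together above 0 apart from 1 at -0.081, whereas for CCL5, CCL8 and CCL13 horse 4 lies on the other side of 0 from horses 1 and 2.

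Of the receptors, CCR2 kept its level within each horse on its brighter probe. It read -2.45, -3.38 and -2.43 before and -2.35, -3.44 and -2.33 after exercise in horses 1, 2 and 4. Horse 2 was lowest at both times. The changes were 0.11, -0.062 and 0.10, with a mean of 0.048 and a 95% interval of -0.91 to 1.01 (SE 0.40, limma adjusted p = 0.9996), or -0.35 to 0.45 with the horse as a block (limma adjusted p = 0.94). The dimmer probe disagreed in horse 2: it read -5.76 before and -3.93 after, a change of 1.83, beside -0.36 in horse 1 and 0.38 in horse 4. Its mean change was 0.62 (SE 0.44, limma adjusted p = 0.9986).

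ACKR3 was measured near background. Its single probe cleared the background mark on 3 of the 6 arrays, 1 from before and 2 from after exercise. It read -6.51, -6.60 and -5.30 before and -6.49, -5.99 and -6.18 after, with a mean change of -0.083 (SE 0.38, 95% interval -0.98 to 0.82, limma adjusted p = 0.9992). The highest value was that of horse 4 before exercise, and with quantile normalization the mean change was 0.13.

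Differences between the horses had small unadjusted p-values for 3 of the 7 genes, CXCL8, CCL3 and CCR2. Limma's moderated F-test between the horses, with exercise in the model, gave unadjusted p-values of 0.00023 to 0.00053 for the 6 CXCL8 probes, 0.0018 for CCL3 and 0.0055 for the brighter CCR2 probe. These 8 of 17 member probes come from 3 of the 7 genes, and 15.5% of all probes had an unadjusted p under 0.05 in this test. After adjustment 0 members passed, against 0.237% of all probes (70 of 29567). The adjusted p-values of the CXCL8 probes were 0.065 to 0.087, that of CCL3 was 0.14, and that of the brighter CCR2 probe was 0.19.

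For the brightest CXCL8 probe, horse 4 minus the mean of horses 1 and 2 was -1.89 on the log2 scale (SE 0.17, 95% interval -2.33 to -1.45). That is a 3.72-fold higher signal in horses 1 and 2, and the other 5 probes gave 3.94-fold to 4.86-fold. The step was present at both times, at -2.02 before and -1.77 after exercise. The 3 arrays after exercise lay on the same slide. The size depended on the background correction, with -1.30 after normexp correction of the median spot signal. The arrays of horse 4 were also the weakest, with 66.35% of spots well above background before and 64.14% after exercise. Their 75th percentile signals, 1753 and 1124, were the lowest as well. The part of array signal in the CXCL8 step was not tested. Where only probes well above background on all 6 arrays were tested, 3 CXCL8 probes were called, with limma adjusted p-values of 0.042 to 0.047. The horse set apart was picked after its values were seen.

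For CCL3 and CCR2 the horse apart was horse 2, again picked after its values were seen. The intervals below do not allow for that choice. CCL3 there was -1.52 relative to the mean of horses 1 and 4 (SE 0.19, 95% interval -2.02 to -1.03), a 2.88-fold higher signal in those 2 horses. The brighter CCR2 probe was -1.02 (SE 0.16, 95% interval -1.44 to -0.60), a 2.03-fold higher signal in horses 1 and 4. The dimmer CCR2 probe gave -0.60 with an interval of -1.88 to 0.67. Intervals of horse 4 minus the mean of horses 1 and 2 also lay above 0, at 0.590 to 1.585 for CCL3. For the brighter CCR2 probe that interval was 0.10 to 0.95. The mean subtracted there holds the low horse 2, so these intervals partly restate the difference of horse 2. The mean level of the brighter CCR2 probe was -2.40 in horse 1 and -2.38 in horse 4, so horse 4 was not set apart from horse 1. For CCL5, CCL8, CCL13 and ACKR3 the F-test gave adjusted p-values of 0.42 to 0.89.

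Markers of the cells that can make CXCL8 differed among themselves in the order of the horses. The 5 measured of 14 monocyte genes (TIMP1, CD14, TLR4, CSF1R and CD68) had summed linear levels of 48.1, 37.0 and 89.3 before and 70.9, 57.4 and 102.9 after exercise in horses 1, 2 and 4. That sum is mostly TIMP1, which was highest in horse 4 at both times (5.99 before and 6.44 after). After exercise CD14 (4.57, 3.66 and 3.41) and TLR4 (3.06, 2.91 and 2.34) were lowest in horse 4. Before exercise both were highest there, at 4.18 and 2.805. CD68 was lowest in horse 4 before exercise (-2.48, -2.09 and -2.80) and lowest in horse 2 after it (-2.53). None of the 5 was lowest in horse 4 at both times, as CXCL8 was. CSF1R was lowest in horse 2 at both times, as were CCL3 and the brighter CCR2 probe. The 3 measured of 18 neutrophil genes (MMP9, FCAR and LTF) had sums of 19.8, 13.2 and 23.9 before and 20.8, 18.1 and 23.9 after. The part of cell numbers in these horse differences was not tested. The erythroid genes HBB and HBA2, 2 of 8, spanned 4.85 to 407.3 before and 27.1 to 486.5 after exercise, lowest in horse 2 and highest in horse 4. The 3 B cell genes measured of 10 had sums of 0.89 to 1.67 before and 1.03 to 1.57 after, and the 2 eosinophil and basophil genes of 11 had 4.00 to 12.5 before and 6.26 to 9.40 after.

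Slide and horse are mixed in these arrays. Slide 1 holds all 3 arrays after exercise but only horse 4 before it, so values within slide 1 set 3 horses against the level of horse 4 and are given as a description. The difference of the brightest probe was then 1.53 for CXCL8, -0.29 for CCL3, -0.60 for CCL5, 0.74 for CCL8, 0.017 for CCL13, -0.28 for CCR2 and -0.92 for ACKR3. With slide as a block the fit gave the same 7 values. With horse and slide both as blocks only the pair of horse 4 informs the change, which was 0.35 for CXCL8, 0.39 for CCL3, -0.59 for CCL5, 1.26 for CCL8, 0.49 for CCL13, 0.10 for CCR2 and -0.88 for ACKR3. In CCL5 all 4 arrays of slide 1 read higher than both arrays of slide 2. Without the horse 4 array before exercise every array before lies on slide 2 and every array after on slide 1, which leaves the 2 factors confounded: slide and exercise cannot be told apart there. In that setting CCL5 was higher by 0.85 (SE 0.17, limma adjusted p = 0.080). CXCL8, with its lowest horse then present only after exercise, was -0.49.

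**Figure D5:**
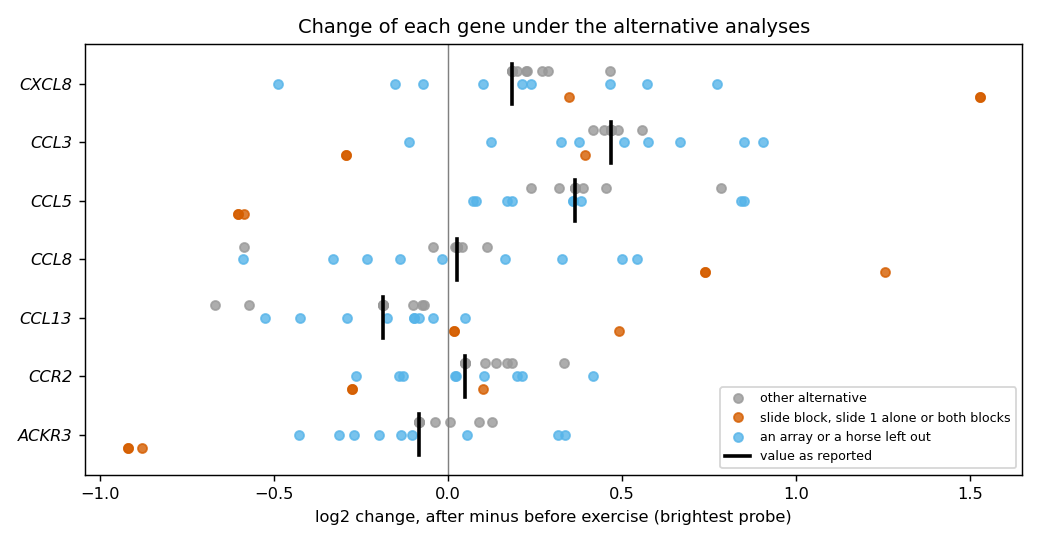
Mean change after exercise of each gene's brightest probe (log2, horizontal axis) as reported (black bar) and under the alternative analyses (points), coloured by whether they use the slide, leave out an array or a horse, or alter another choice. Every gene has points on both sides of 0.

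Few other chemokine ligands could be measured. Of 37 other ligands listed, 7 had a named probe and 2 passed the filter. CXCL10, an interferon-induced ligand of CXCR3, had changes of 0.16, -0.21 and 0.49 in horses 1, 2 and 4 (mean 0.15, SE 0.38). CXCL9, a ligand of the same receptor, had -0.82, -0.50 and 1.06 (mean -0.087, SE 0.38), the same signs as CCL8 and CCL13. CXCL6, CXCL11, CCL2, CCL11 and CCL16 did not pass, being well above background on at most 2 of 6 arrays with any probe.

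Downstream and upstream genes did not pass either, with 0 called in both lists. Of 42 genes of receptor signalling 4 were measured, 3 higher and 1 lower in the mean, with a median change of 0.16. The lower one was ROCK1, a kinase that drives contraction of the migrating cell. Its changes were -0.67, -0.64 and -0.30 in horses 1, 2 and 4 (mean -0.54, SE 0.18). The groups did not overlap, as in 7.31% of all probes, and 11.5% of all probes were lower in all 3 horses. RGS1, which damps chemokine receptor signalling, had a mean change of 0.23 (SE 0.29). Of 30 listed genes that induce or otherwise regulate chemokine transcription 5 were measured, 4 higher and 1 lower, with a median change of 0.21. IL6 had 1.07 (SE 0.54) with its probe above background on 3 of 6 arrays, IFNG -0.49 (SE 0.48) and TLR4, the endotoxin receptor, 0.27 (SE 0.31). All limma adjusted p-values of the genes in this and the preceding paragraph were above 0.99.

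Among the named genes that are not members, likeness to each member was measured as the root mean square difference over the 6 arrays between profiles centred on their own mean, and is given as a description. The nearest to CXCL8 were MIA (0.29) and RLN (0.35), and both were lowest on the 2 arrays of horse 4. RLN was well above background on 4 of 6 arrays. The nearest to CCL3 were SLC6A4 (0.28) and GK2 (0.29), with SLC6A4 also among the nearest to CCR2 (0.18) beside EQMCE1 (0.18). IGF2 (0.17) was among the nearest to CCL5, and MET (0.20) and CXCL9 (0.30) were nearest to CCL8. ZNF648 and H19 were nearest to CCL13 (0.10 and 0.11), and CHML (0.12) and TXNRD1 (0.19) to ACKR3. Profiles that vary little lie near many others, so that these values compare only within a member.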

How the data were processed

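Per the labels, Cy3-labelled total RNA of each sample was measured on an Agilent horse array with 1 colour. The deposited files hold the spots of 1 array each, read by Agilent Feature Extraction 10.10.1.1, and the processed signal is, per the file headers, an intensity with the background subtracted and no normalization between arrays. Flags of the same files, deposited by the authors, mark spots well above background. The header names the design build EquCab1, and no coordinate is used here.

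The log2 of the processed signal minus the 75th percentile of 43803 non-control spots was taken, outlier spots were left out, spots of a probe were averaged, and 29571 of 43603 probes well above background on at least 3 of 6 arrays were kept (29570 tested). Probes were named through unversioned RefSeq accessions and a RefSeq gene table of assembly TB-T2T (1979 probes, 870 genes). Near-identical gene copies could share a probe's signal, and this was not tested, since no probe sequence was used here. Each gene is represented by the brightest probe that was kept. Groups were compared with limma 3.58.1 in R 4.3.3 (lmFit, eBayes, two-sided, Benjamini-Hochberg over all probes tested, threshold 0.05) without the horse as a block. The numbers 1, 2 and 4 pair samples of the same animal, whose deviations from the group means correlated across probes with 0.36, 0.40 and 0.23. The fits were tested on simulated data. Genes named are the members, the 3 genes with the smallest p in each chemokine list and the 2 nearest profiles for each member, and some of these are not reported here. Members and lists were chosen with earlier results of these data known. The number of arrays limits the precision. Alternatives were normexp (offset 50, on the median spot signal), quantile and median normalization, other filters, outlier spots kept, the first array column of 1 array left out, horse and slide as blocks, slide 1 alone, array weights, probes averaged per gene, and each array or horse left out.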

Additional observations from a re-analysis of the deposited data

How the results depend on the processing

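In all 21 alternatives limma called 0 member probes after exercise, with smallest adjusted p-values of 0.052 to 1. The sign of each gene's mean change turned in some of the alternatives. Over all probes the count of 0 became 132 with slide as a block, 117 with horse (replicate block) and slide as blocks, 122 in slide 1 alone (1 array before exercise, assumed to vary like those after) and 1638 with array weights, and 0 to 595 when an array or a horse was left out, 595 without the horse 4 array before exercise and 20 without horse 4. The replicate block alone changed no call (0 probes; CXCL8 0.18, adjusted p = 0.79). With array weights, the horse 1 array after exercise had a weight of 15.3, against 0.219 to 1.82 for the other arrays. Among the arrays before exercise that of horse 1 weighed most, at 1.82. The 1638 calls and the smallest member adjusted p of 0.052 therefore lean mostly on the pair of horse 1. Its arrays lie on different slides, so exercise and slide cannot be told apart in that pair. Without horse 4, as without its array before exercise, exercise coincides with slide. The 20 and 595 calls thus cannot tell exercise from slide. Leaving out an array or a horse gave -0.49 to 0.77 for CXCL8, -0.11 to 0.90 for CCL3 and -0.59 to 0.54 for CCL8. For CCL13 it gave -0.53 to 0.048, for CCR2 -0.26 to 0.42 and for ACKR3 -0.43 to 0.34. The values below 0 for CXCL8 and CCL3 here came from leaving out a single array, which breaks a pair of the same horse. With a whole horse left out, CXCL8 was 0.10 to 0.24 and CCL3 0.32 to 0.57. With horse and slide as blocks they were 0.35 and 0.39. With slide as a block, or in slide 1 alone, the sign turned for CCL3 (-0.2948), CCL5 (-0.6033), CCL13 (0.01714) and CCR2 (-0.2771), and with horse and slide as blocks for CCL5 (-0.587) and CCL13 (0.4902). CCL8 had -0.044 with normexp and -0.59 with array weights. ACKR3 had 0.088 with normexp, 0.13 with quantile and 0.0057 with median normalization. Its probe could not be tested where all 6 arrays had to be above background. CCL5 had 0.072 to 0.85 with an array or horse left out, 0.079 without the horse 1 array before exercise, 0.072 without horse 1 and 0.85 without the horse 4 array before exercise. The cause of these shifts was not tested. Between the horses the 70 calls became 1 with quantile normalization, 2 with no filter, 1 with outlier spots kept, and 0 to 456 with an array left out (chosen after seeing the data). The 0 member calls became 3, all CXCL8, under the stricter filter, and 0 to 1 with an array left out, the 1 being a CXCL8 probe without the horse 4 array after exercise. The CXCL8 step of horse 4 kept its sign in 13 of 13 alternatives, at -2.32 to -1.30. The ACKR3 probe and the CCL13 probes other than the brightest lay near background, which limits what their values can show.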
